A study of Mus musculus with 9 samples.

Results

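The collagen genes encode the alpha chains of the main structural proteins of skin matrix. Members were taken as genes of the array with a symbol of the form Col, number, a, number, measured by probe sets that carry no other symbol. The rule found 44 collagen genes of 19938 genes tested. For Col6a5 and Col6a6, which have 2 probe sets each, the brighter probe set over all 9 arrays was used. Genes were grouped by collagen class into 11 fibrillar, 8 basement membrane, 9 FACIT, 4 transmembrane and 6 beaded filament collagens. The other 6 (Col7a1, Col8a1, Col8a2, Col10a1, Col26a1 and Col28a1) belong to none of these 5 classes. Col21a1, a FACIT collagen, was not analysed here.

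RNA of mouse back skin at postnatal day 4 was hybridised to Affymetrix Mouse Gene 1.0 ST arrays, and each array holds a separate preparation. The 4 SKP arrays (replicates 3, 4, 5 and 6) hold spherical colonies of skin-derived precursor cells, grown in culture and collected at primary passage. The labels do not state the genotype or strain of the mice used for these colonies. The 5 sorted arrays (replicates 2, 16, 17, 18 and 20) hold cells from Sox2:EGFP mice, whose EGFP marks cells that express Sox2. These cells were EGFP-positive and negative for surface CD34, and went from the sorter straight into RNAlater. The labels do not give the number of animals in each preparation. The groups differ in culture, in the sort and in which cells were taken, and these cannot be told apart. In bulk RNA, fewer cells of a type and less RNA per cell cannot be told apart either.

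Each collagen molecule is a trimer of alpha chains wound around each other. Fibrillar collagens build the striated fibrils that give the dermis its strength, type V and type XI chains regulate fibril diameter, and FACIT collagens sit on fibril surfaces. Type IV collagen forms the network of basement membranes, type VI forms beaded filaments between fibrils and cells, and transmembrane collagens span the plasma membrane. In the endoplasmic reticulum, prolyl and lysyl hydroxylases modify the chains and chaperones hold them while they fold. Outside the cell, proteases trim the procollagen ends and lysyl oxidases cross-link the fibrils.

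Values are log2 RMA levels as deposited by the authors, and "difference" below is SKP minus sorted cells on that scale, so 1 unit is 2-fold. Probe sets differ in brightness, so levels of different genes are not compared. A gene was called where limma gave an adjusted p under 0.05 (Benjamini-Hochberg over all 19938 genes). Array medians lay between 7.15 and 7.30. The lowest 33.3% of genes, called low-level genes below, had mean levels up to 6.31, where a value may not be above background.

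Sorted replicates 2 and 20 stood apart from replicates 16, 17 and 18, and the collagen genes were among the genes that set them apart. Sox2 RNA was at 8.24 to 9.25 on the sorted arrays and 5.78 to 6.41 on the SKP arrays. Cd34 RNA, against whose protein the cells were sorted, was at 10.19 and 10.27 on sorted replicates 2 and 20, at 7.31 to 7.82 on the other 3 and at 11.14 to 11.62 on the SKP arrays. The mean level of 8 dermal fibroblast markers, Cd34 among them, was 11.11 to 11.18 on the SKP arrays. It was 9.11 to 9.16 on sorted replicates 16, 17 and 18, and 10.22 and 10.47 on replicates 2 and 20. Because the cells were sorted against CD34, this mean is not independent of the sort. The mean level of 10 keratinocyte markers was 6.40 to 6.84 on the SKP arrays. It was 9.06 to 9.26 on replicates 16, 17 and 18, and 10.29 and 11.77 on replicates 2 and 20. Levels of 22 of 44 collagens (50%) on both of these replicates were above all 3 others, against 22.6% of all genes. They were below all 3 others for 5 collagens (11.4%), against 26.1% of all genes. Values without replicates 2 and 20, a choice made after their values were seen, are therefore given beside the results.

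Some collagens were higher in SKPs and others lower. Of the 44 collagens, 7 were higher in SKPs, against 20.2% of all genes, and 10 were lower, against 16.9% of all genes. At least 2-fold, 3 were higher (5.46% of all genes) and 7 lower (6.25% of all genes). SKP and sorted arrays did not overlap for 17 collagens, against 34.0% of all genes. The median collagen difference was -0.01, beside 0.07 over all genes, with a range from -2.73 for Col11a1 to 1.46 for Col18a1. Col24a1 and Col5a2 were the others that were higher by 2-fold or more. Col28a1, Col15a1, Col12a1, Col20a1, Col14a1 and Col23a1 were, with Col11a1, lower by as much. With each array centred on its median the counts were 11 higher and 10 lower, and with quantile normalization 9 higher and 8 lower. Over all genes, 5296 were higher and 2932 lower with centring, and 4407 and 3356 with quantile normalization, beside 4020 and 3366 as deposited.

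Without sorted replicates 2 and 20, 14 collagens were higher (25.4% of all genes in that fit) and 12 lower (21.1% of all genes). All 17 earlier calls were kept with their direction, 7 more collagens were called higher and 2 more lower. The median difference was then 0.01. Of the 17 calls made with all arrays, 13 also held under every one of the 17 other settings tried. The other 4 were Col3a1, Col9a2, Col12a1 and Col23a1, whose exceptions are given with their values.

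**Figure D1:**
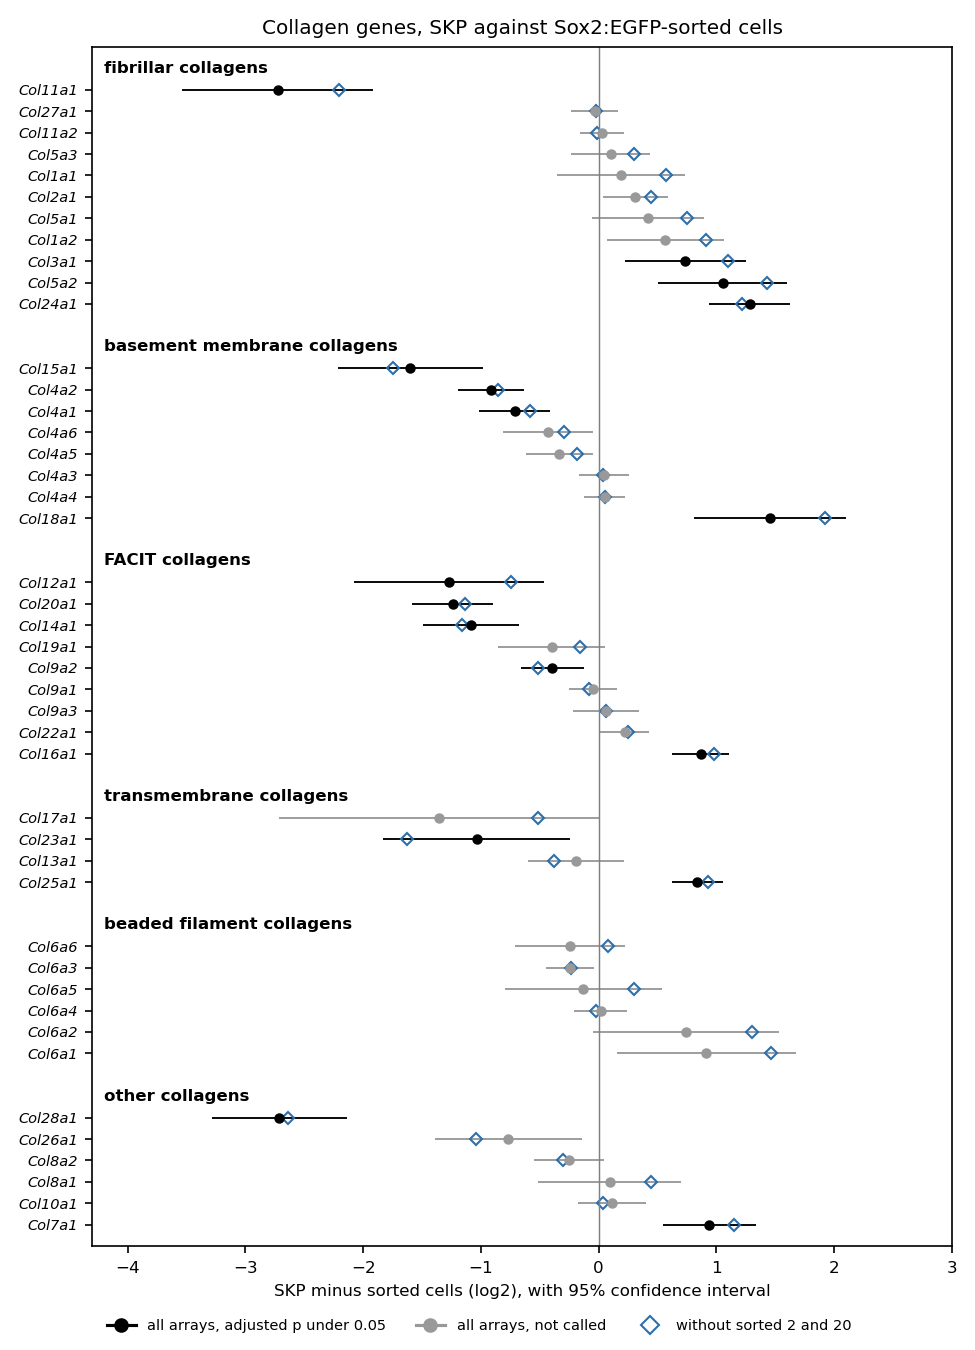
Difference of each of the 44 collagen genes between SKP and sorted arrays (log2, x axis), grouped by class; points are the limma estimates with all 9 arrays, lines their 95% confidence intervals, and open diamonds the estimates without sorted replicates 2 and 20. Col11a1 (-2.73) and Col28a1 (-2.71) lie farthest to the left and Col18a1 (1.46) farthest to the right, and the diamonds of most fibrillar and type VI chains lie to the right of their points.

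Of 11 fibrillar collagens, 3 were called higher in SKPs (Col24a1, Col5a2 and Col3a1), 1 lower (Col11a1) and 7 were not called, with a median difference of 0.31. Without sorted replicates 2 and 20, 8 were higher, 1 was lower, and the median was 0.58. The shares of all genes were 20.2% higher and 16.9% lower with all arrays, and 25.4% and 21.1% without these 2. Sorted replicates 2 and 20 were both above the other 3 sorted arrays for 8 of the 11 genes. Of 8 dermal fibroblast markers, 6 were higher in SKPs, among them Cd34, which the sort selected against, and 1 was lower. Their mean level on sorted replicates 2 and 20 lay between those of the other sorted arrays and the SKP arrays. Their part in the fibrillar result was not tested.

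Types I and III make up most dermal fibrils. Col1a1 was at 13.28, 13.36, 13.13 and 13.25 on the SKP arrays, at 12.59, 12.89 and 12.56 on sorted replicates 16, 17 and 18, and at 13.78 and 13.49 on replicates 2 and 20. The SKP values thus lay inside the sorted range, above 3 sorted arrays and below the other 2, and the difference of 0.19 (95% interval -0.35 to 0.74) was not called (adjusted p = 0.575). Without replicates 2 and 20 it was 0.58 ± 0.10 (SE; adjusted p = 0.00133). Col1a2, the partner chain of type I, was at 13.52 to 13.70 on the SKP arrays and at 12.60 to 13.76 on the sorted arrays. Its difference of 0.57 was not called (adjusted p = 0.0710), and was 0.91 without replicates 2 and 20 (adjusted p = 2.06e-05). Leaving out only replicate 2 gave Col1a2 an adjusted p of 0.00513, and leaving out only replicate 20 gave 0.0474.

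Col3a1, the only chain of type III, was at 13.56, 13.70, 13.41 and 13.48 on the SKP arrays. On sorted replicates 16, 17 and 18 it was at 12.46, 12.52 and 12.33, and on replicates 2 and 20 at 13.43 and 13.26. The ranges met only at sorted replicate 2, which passed the lowest SKP array. The mean was 13.54 ± 0.13 (SD, n = 4) in SKPs and 12.80 ± 0.51 (SD, n = 5) in sorted cells, a difference of 0.74 ± 0.23 (SE; adjusted p = 0.0286). The call was lost without SKP replicate 3 (adjusted p = 0.0673), 4 (0.0762) or 6 (0.0592) and without sorted replicate 16 (0.0649), 17 (0.0666) or 18 (0.0594). Without both replicates 2 and 20 the difference of Col3a1 was 1.10 (adjusted p = 1.63e-05).

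Type V chains, which co-assemble with type I and limit fibril width, were not alike. Col5a2 was at 11.80, 11.67 and 11.67 on SKP replicates 3, 5 and 6 and just under 12 on replicate 4, at 10.28, 10.51 and 10.26 on sorted replicates 16, 17 and 18, and at 11.47 and 11.13 on replicates 2 and 20. Every SKP array was above every sorted array, and Col5a2 was 2.08-fold higher in SKPs (difference 1.05 ± 0.25, SE; adjusted p = 0.00692). The Col5a1 difference of 0.42 was not called (adjusted p = 0.151), nor was that of Col5a3 (0.10, adjusted p = 0.637). Without replicates 2 and 20 these were 0.75 and 0.30 (adjusted p = 4.83e-05 and 0.00435), and that of Col5a2 was 1.43.

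**Figure D2:**
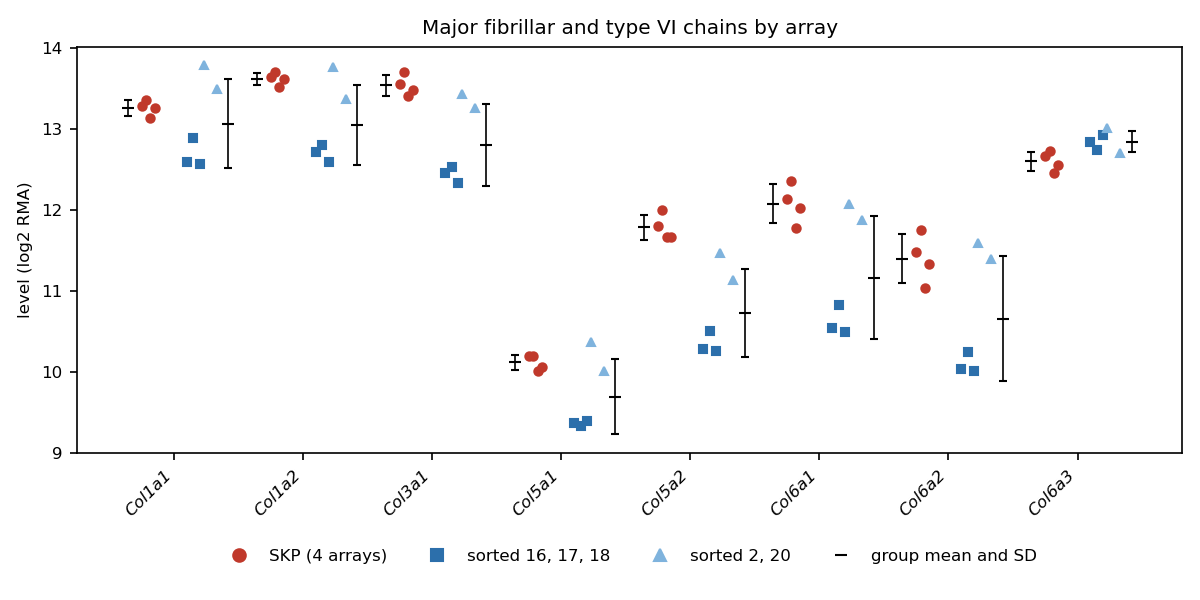
Level on each array (log2 RMA, y axis) of the major fibrillar and type VI chains: red circles are the 4 SKP arrays, dark squares sorted replicates 16, 17 and 18, light triangles sorted replicates 2 and 20, and bars the mean and SD of each group. The triangles lie above the squares for all these genes but Col6a3, and for Col1a1 they also lie above the circles.

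Col24a1, a fibrillar chain found mainly in developing bone and cornea, was called higher under every setting. It was at 8.38, 8.12, 8.90 and 8.48 on the SKP arrays and at 7.30, 7.19 and 7.25 on sorted replicates 16, 17 and 18. On replicates 2 and 20 it was at 7.30 and 6.87, so replicate 20 was the lowest and no sorted array reached the SKP range. The mean was 8.47 ± 0.32 (SD, n = 4) in SKPs and 7.18 ± 0.18 (SD, n = 5) in sorted cells, 2.44-fold higher (difference 1.29 ± 0.15, SE; adjusted p = 0.000117). Unlike the major fibrillar chains, its difference changed little without replicates 2 and 20 (1.22).

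Col11a1, a minor chain that nucleates fibrils in cartilage and other tissues, was lower in SKPs. With all arrays its difference was the lowest estimate of the family, next to that of Col28a1 (-2.71), and without sorted replicates 2 and 20 it was -2.21 beside -2.64 for Col28a1. It was at 7.73, 7.60, 7.30 and 7.62 on the SKP arrays, at 9.59, 9.99 and 9.73 on sorted replicates 16, 17 and 18, and at 11.63 and 10.50 on replicates 2 and 20. The groups were far apart: the lowest sorted array was above the highest SKP array by more than 1 log2 unit. Its mean was 7.56 ± 0.19 (SD, n = 4) in SKPs and 10.29 ± 0.83 (SD, n = 5) in sorted cells, 6.61-fold lower in SKPs (difference -2.73 ± 0.36, SE; adjusted p = 0.000236), and 4.62-fold lower without replicates 2 and 20. Of all genes, limma called 20.2% higher and 16.9% lower. Of 8 cartilage markers, 5 were low-level genes and only Acan, the cartilage proteoglycan, was called (difference -1.76, lower in SKPs). The mean level of that list was 6.11 to 6.47 on the SKP arrays, 6.29 to 6.38 on sorted replicates 16, 17 and 18, and 6.82 and 6.72 on replicates 2 and 20. Acan was at 9.44 and 9.02 on replicates 2 and 20 and at 6.75 to 7.01 on the other sorted arrays, and its part in the Col11a1 values was not tested.

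The promoters of Col11a1 and Col24a1 are shown because they are the fibrillar genes with the largest called differences in opposite directions. RefSeq (GRCm38.p6) windows run from 250 bases before to 50 bases after the start site, 300 bases in all, and were held for 35 of the 44 collagens. Capitals mark matches to GGGCGG (the core of an Sp-factor GC box) or CCAAT on either strand. TATAAA was searched too and is in neither. Col11a1 lies at chr3:114030290-114030589, plus strand, and Col24a1 at chr3:145292222-145292521, plus strand.
Col11a1: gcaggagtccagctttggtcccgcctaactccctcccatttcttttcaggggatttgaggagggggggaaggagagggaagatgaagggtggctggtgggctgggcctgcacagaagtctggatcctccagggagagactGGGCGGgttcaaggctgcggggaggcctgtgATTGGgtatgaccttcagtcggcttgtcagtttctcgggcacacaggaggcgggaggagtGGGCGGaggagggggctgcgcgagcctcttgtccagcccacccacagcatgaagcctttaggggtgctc
Col24a1: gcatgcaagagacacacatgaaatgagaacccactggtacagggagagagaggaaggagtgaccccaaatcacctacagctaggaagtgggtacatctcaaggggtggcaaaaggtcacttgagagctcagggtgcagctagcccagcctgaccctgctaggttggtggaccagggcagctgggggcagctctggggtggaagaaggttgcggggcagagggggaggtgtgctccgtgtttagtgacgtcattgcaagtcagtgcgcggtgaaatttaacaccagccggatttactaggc
In the Col11a1 window, GGGCGG begins 110 and 19 bases before the start site and CCAAT, on the other strand, 79 bases before it. The Col24a1 window holds none of these motifs. Over the 38 windows of collagens, GGGCGG was in 60.5%, CCAAT in 34.2% and TATAAA in 13.2%. Over all 32851 windows of the table, the shares were 35.7%, 37.4% and 13.6%. A match describes the letters only.

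The remaining fibrillar genes were not called. Col2a1, the main cartilage fibril chain, was at 7.63 to 8.06 on the SKP arrays and 7.35 to 7.75 on the sorted arrays (difference 0.31, adjusted p = 0.0743). It was called higher without replicates 2 and 20 (0.44, adjusted p = 0.0102). Col2a1 was also called higher without SKP replicate 5, sorted replicate 2 or sorted replicate 20. The same held with quantile normalization, median centring or array weights. Col11a2 differed by 0.03 (adjusted p = 0.817) and Col27a1 by -0.03 (adjusted p = 0.807). The 95% interval of Col11a2 ran from -0.16 to 0.22 and that of Col27a1 from -0.23 to 0.17.

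Type VI chains, which form beaded filaments around cells, were not called by limma in any of 6 genes, with a median difference of -0.06. At an unadjusted p under 0.05, 2 of the 6 passed, beside 9030 of all 19938 genes. With limma's trend and robust fitting 0 of the 6 were called, beside 4006 higher and 3347 lower over all genes. Without sorted replicates 2 and 20, 2 were higher (Col6a1 and Col6a2), 0 lower, and the median was 0.19. Over all genes, 20.2% were higher and 16.9% lower with all arrays, and 25.4% and 21.1% without these 2. Col6a1 was at 12.14, 12.36, 11.78 and 12.03 on the SKP arrays, at 10.54, 10.82 and 10.49 on sorted replicates 16, 17 and 18, and at 12.08 and 11.88 on replicates 2 and 20. Its SKP values thus stood well above 3 sorted arrays and overlapped the other 2 (difference 0.92, adjusted p = 0.0600). Leaving out either array gave a call: without replicate 2 the adjusted p of Col6a1 was 0.0134, and without replicate 20 it was 0.0228. Without both the gene was 2.75-fold higher in SKPs (adjusted p = 4.18e-05). Col6a1 was also called higher with median centring, with array weights or with the low-level genes left out.

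Col6a2 had the same shape, with 11.03 to 11.75 on the SKP arrays, 10.01 to 10.24 on sorted replicates 16, 17 and 18, and 11.59 and 11.39 on replicates 2 and 20. Its difference was 0.74 (adjusted p = 0.130), and 1.30 without replicates 2 and 20 (adjusted p = 0.000148). Col6a3, the largest type VI chain, was at 12.46 to 12.73 on the SKP arrays and 12.71 to 13.01 on the sorted arrays. Its difference was on the other side of 0 (-0.24, adjusted p = 0.0641) and passed without replicate 20 alone (adjusted p = 0.0360). Col6a5 and Col6a6 differed by -0.13 and -0.25 (adjusted p = 0.770 and 0.401), and their second probe sets, when every probe set was tested, by -0.58 and -0.57 (adjusted p = 0.440 and 0.246). Col6a4 was a low-level gene.

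Basement membrane collagens held opposite results, with 1 of 8 higher, 3 lower and a median difference of -0.38. Without sorted replicates 2 and 20 the counts were the same and the median was -0.24. Of all genes, 20.2% were higher and 16.9% lower with all arrays, and 25.4% and 21.1% without these 2. Col18a1, a heparan sulfate proteoglycan whose end fragment is endostatin, had the highest estimate of the family, with and without sorted replicates 2 and 20. It was at 10.80, 10.71, 10.54 and 10.70 on the SKP arrays, at 8.67, 8.91 and 8.70 on sorted replicates 16, 17 and 18, and at 10.06 and 9.81 on replicates 2 and 20. The SKP arrays were above all sorted arrays and varied less (SD 0.11 against 0.65). Col18a1 was 2.75-fold higher in SKPs (difference 1.46 ± 0.29, SE; adjusted p = 0.00272) and 3.80-fold higher without replicates 2 and 20.

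Col15a1, the closest relative of Col18a1, was lower in SKPs. It was at 9.93, 10.47, 8.98 and 9.49 on the SKP arrays, where replicate 5 was the lowest, and at 11.44, 11.48 and 11.47 on sorted replicates 16, 17 and 18. Replicate 2 matched these at 11.44 and replicate 20 was below them at 10.76, still above every SKP array. The mean was 9.72 ± 0.63 (SD, n = 4) in SKPs and 11.32 ± 0.31 (SD, n = 5) in sorted cells, 3.03-fold lower in SKPs (difference -1.60 ± 0.28, SE; adjusted p = 0.00118), and the difference was -1.75 without replicates 2 and 20 (adjusted p = 0.00113).

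Col4a1 and Col4a2, the chains of the ubiquitous type IV trimer, were lower together. Col4a1 was at 10.02, 10.25, 9.69 and 9.87 on the SKP arrays, and at 10.57, 10.54, 10.51, 10.97 and 10.76 on sorted replicates 16, 17, 18, 2 and 20. Col4a2 was at 10.14, 10.25, 9.74 and 9.89 on the SKP arrays, and at 10.89, 10.80, 10.88, 11.21 and 10.82 on the same sorted arrays. For both genes no SKP array reached the sorted range, and SKP replicate 4 was the highest and replicate 5 the lowest of the SKP arrays. Col4a1 was 1.64-fold lower (difference -0.71 ± 0.13, SE; adjusted p = 0.00200) and Col4a2 1.89-fold lower (difference -0.92 ± 0.13, SE; adjusted p = 0.000276). The differences were -0.58 and -0.85 without replicates 2 and 20 (adjusted p = 0.00424 and 0.000426).

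The windows of Col4a1 and Col4a2 are shown because these genes share a promoter region and moved the same way. Their RefSeq start sites lie 21 bases apart on opposite strands. By these windows each start site lies downstream of the other, so the annotated transcripts overlap at their starts. The Col4a1 window is chr8:11312777-11313076, minus strand, and that of Col4a2 chr8:11312555-11312854, plus strand (GRCm38.p6). Capitals mark GGGCGG or CCAAT on either strand.
Col4a1: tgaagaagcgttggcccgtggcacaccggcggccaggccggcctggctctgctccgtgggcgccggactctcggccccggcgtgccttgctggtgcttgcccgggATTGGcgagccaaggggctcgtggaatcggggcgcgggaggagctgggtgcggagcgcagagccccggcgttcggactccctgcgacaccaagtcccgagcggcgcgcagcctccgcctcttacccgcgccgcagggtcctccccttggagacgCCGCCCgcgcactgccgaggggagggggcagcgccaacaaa
Col4a2: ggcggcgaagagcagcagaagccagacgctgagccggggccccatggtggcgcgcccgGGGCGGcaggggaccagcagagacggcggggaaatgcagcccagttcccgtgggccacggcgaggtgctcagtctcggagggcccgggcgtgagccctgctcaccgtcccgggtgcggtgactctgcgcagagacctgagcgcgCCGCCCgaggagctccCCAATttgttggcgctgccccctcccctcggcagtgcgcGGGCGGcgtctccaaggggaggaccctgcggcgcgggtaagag
The windows share 78 bases, chr8:11312777-11312854, given here on the plus strand.
Shared bases: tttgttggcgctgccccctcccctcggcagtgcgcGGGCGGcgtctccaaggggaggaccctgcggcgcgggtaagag
The shared stretch holds GGGCGG, which begins 7 bases after the Col4a2 start site. Neither window holds TATAAA. Col4a5 and Col4a6 lie head to head on chromosome X without such an overlap, with start sites 1343 bases apart. Orientation was read only for neighbours whose windows were both held, so that of Col4a3 and Col4a4 and that of Col3a1 and Col5a2 were not examined here.

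Markers of vessel cells were examined beside the type IV and type XV genes. Of all 19938 genes, limma called 20.2% higher and 16.9% lower, and 9030 had an unadjusted p under 0.05. With trend and robust fitting 3347 of all genes were lower. Of 8 endothelial markers 0 were higher and 2 lower by limma (Kdr and Erg). Of these 8 markers, 3 had an unadjusted p under 0.05 and 1 was lower with trend and robust fitting. Their mean level was 6.22 to 6.59 on the SKP arrays, 6.25 to 6.35 on sorted replicates 16, 17 and 18, and 7.09 and 7.61 on replicates 2 and 20. Of 7 pericyte and smooth muscle markers, 5 were lower and 1 higher, with a mean of 7.99 to 8.12 on the SKP arrays, 9.91 to 10.35 on replicates 16, 17 and 18, and 10.28 and 10.32 on replicates 2 and 20. Without replicates 2 and 20, limma called 2 endothelial markers lower (Kdr and Erg, adjusted p = 0.0123 and 0.0106). It called 2 higher (Cdh5 and Emcn, adjusted p = 0.00512 and 0.00183). In that fit 21.1% of all genes were lower and 25.4% higher. The part of endothelial and pericyte markers in the collagen results was not tested.

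The other type IV chains, which serve specialised basement membranes, were not called. Col4a5 differed by -0.33 (adjusted p = 0.0680) and Col4a6 by -0.43 (adjusted p = 0.0770). Col4a6 did not overlap between the groups, with 6.01 to 6.46 on the SKP arrays, 6.54 to 6.64 on sorted replicates 2, 16, 17 and 18, and 7.32 on replicate 20. Its SKP mean of 6.30 was at low level. Col4a3 and Col4a4 differed by 0.05 each (adjusted p = 0.735 and 0.638).

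Of 9 FACIT collagens, 4 were lower (Col12a1, Col14a1, Col20a1 and Col9a2) and 1 higher (Col16a1), with a median difference of -0.39. Without replicates 2 and 20 the counts were the same and the median was -0.15. The shares over all genes were 20.2% higher and 16.9% lower, and 25.4% and 21.1% without these 2 arrays. Col12a1 and Col14a1 bind the surface of type I fibrils in dermis and tendon. Col14a1 was at 11.51, 11.83, 10.88 and 11.03 on the SKP arrays and at 12.51, 12.37, 12.53, 12.41 and 12.16 on sorted replicates 16, 17, 18, 2 and 20. The sorted arrays were close together and all above the SKP arrays, and Col14a1 was 2.12-fold lower in SKPs (difference -1.08 ± 0.18, SE; adjusted p = 0.00106) and 2.23-fold lower without replicates 2 and 20.

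Col12a1 was at 10.51, 10.09, 10.62 and 10.07 on the SKP arrays, at 10.95, 11.35 and 10.88 on sorted replicates 16, 17 and 18, and at 12.78 and 12.01 on replicates 2 and 20. All sorted arrays were above the SKP arrays, with replicates 2 and 20 farthest. The gene was 2.42-fold lower in SKPs (difference -1.27 ± 0.36, SE; adjusted p = 0.0189) and 1.67-fold lower without replicates 2 and 20 (difference -0.74, adjusted p = 0.00668). The call was lost without SKP replicate 4 (adjusted p = 0.0538) or 6 (0.0576).

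Col20a1, a little-studied FACIT, was at 7.23, 6.97, 6.83 and 7.01 on the SKP arrays and at 8.10, 8.46, 7.86, 8.62 and 8.21 on sorted replicates 16, 17, 18, 2 and 20. The groups did not overlap, and Col20a1 was 2.36-fold lower in SKPs (difference -1.24 ± 0.15, SE; adjusted p = 0.000142) and 2.19-fold lower without replicates 2 and 20. Col9a2, a type IX chain typical of cartilage, was at 7.88, 7.80, 7.45 and 7.86 on the SKP arrays, at 8.29, 8.21 and 8.27 on sorted replicates 16, 17 and 18, and at 7.96 on both replicates 2 and 20. Its groups were separate by a small gap, 1.31-fold lower in SKPs (difference -0.39, adjusted p = 0.0264; -0.51 without replicates 2 and 20), and the call was lost without SKP replicate 5 (adjusted p = 0.0634), without sorted replicate 16, 17 or 18 (0.0601 to 0.0629) and with quantile normalization (0.0510).

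Col16a1, which in skin lies near the dermal-epidermal junction and on microfibrils, was the only FACIT called higher. It was at 9.83, 9.62, 9.63 and 9.71 on the SKP arrays, at 8.79, 8.65 and 8.72 on sorted replicates 16, 17 and 18, and at 9.16 and 8.83 on replicates 2 and 20. No sorted array reached the SKP arrays, and Col16a1 was 1.83-fold higher (difference 0.87 ± 0.11, SE; adjusted p = 0.000158), and 1.97-fold higher without replicates 2 and 20. Col9a1, Col9a3, Col19a1 and Col22a1 were not called, with differences of -0.05, 0.06, -0.40 and 0.22 (adjusted p = 0.707, 0.735, 0.160 and 0.0871). Col22a1 was called higher with quantile normalization, median centring or array weights (lowest adjusted p = 0.00497). The SKP mean of Col19a1 (6.12) was at low level.

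Transmembrane collagens went separate ways, with 1 of 4 higher, 1 lower and a median of -0.61. In the fit without replicates 2 and 20, 1 was higher, 2 were lower, and the median was -0.44. All genes gave 20.2% higher and 16.9% lower with all arrays, and 25.4% and 21.1% without these 2. Col25a1, first known as an amyloid plaque component, was at 7.85, 7.62, 7.81 and 7.95 on the SKP arrays and at 6.94, 6.86, 6.84, 7.14 and 7.08 on sorted replicates 16, 17, 18, 2 and 20. The groups were clearly separate, 1.79-fold higher in SKPs (difference 0.84 ± 0.10, SE; adjusted p = 8.90e-05) and 1.90-fold higher without replicates 2 and 20. Col23a1 was at 8.99, 8.82, 8.69 and 8.86 on the SKP arrays and at 10.56, 10.30 and 10.54 on sorted replicates 16, 17 and 18, but at 9.06 and 8.92 on replicates 2 and 20. Those 2 arrays looked like the SKP arrays for this gene, and replicate 20 lay inside their range.

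Col23a1 was 2.05-fold lower in SKPs with all arrays (difference -1.04 ± 0.36, SE; adjusted p = 0.0442) and 3.09-fold lower without replicates 2 and 20 (difference -1.63, adjusted p = 2.64e-06). The call was lost without any SKP array (adjusted p = 0.0776 to 0.0992), without sorted replicate 16, 17 or 18 (0.0919 to 0.0968) and with quantile normalization (0.0531). The 8 dermal papilla markers, all lower in SKPs, also had a lower mean on replicates 2 and 20 (10.19 and 9.72) than on the other 3 sorted arrays (11.10 to 11.30). Their mean on the SKP arrays was 5.84 to 6.05, with the SKP mean of 5 of the 8 at low level. Their part in the Col23a1 result was not tested.

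Col17a1, the hemidesmosome collagen of basal keratinocytes, was at 7.15, 6.87, 6.91 and 7.38 on the SKP arrays. On sorted replicates 16, 17 and 18 it was at 7.48, 7.48 and 7.81, on replicate 2 at 8.56 and on replicate 20 at 10.83. No arrays overlapped between the groups, but the wide sorted spread left the difference of -1.35 (95% interval -2.72 to 0.01) uncalled (adjusted p = 0.113). It was called without replicate 20 (adjusted p = 0.0293) and without both (-0.51, adjusted p = 0.0170). All 10 keratinocyte markers were lower in SKPs, and like Col17a1 their mean was highest on replicate 20 and next on replicate 2. The part of keratinocyte RNA was not tested. Col13a1 differed by -0.19 (adjusted p = 0.451).

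Among the remaining collagens, Col28a1, which is known mainly from Schwann cells of peripheral nerve, had the smallest adjusted p of the family. It was at 6.56, 6.49, 6.80 and 7.14 on the SKP arrays, at 9.57, 9.49 and 9.09 on sorted replicates 16, 17 and 18, and at 10.26 and 8.87 on replicates 2 and 20. All sorted arrays were far above the SKP arrays. The mean was 6.75 ± 0.29 (SD, n = 4) in SKPs and 9.46 ± 0.53 (SD, n = 5) in sorted cells, 6.55-fold lower in SKPs (difference -2.71 ± 0.26, SE; adjusted p = 2.56e-05) and 6.23-fold lower without replicates 2 and 20. The 5 Schwann cell markers measured, of 7 listed, were all lower in SKPs, with a mean of 6.43 to 6.84 there, 8.71 to 9.15 on sorted replicates 16, 17 and 18, and 9.42 and 8.90 on replicates 2 and 20. All 6 melanocyte markers were lower as well, with means of 6.27 to 6.63 on the SKP arrays and 8.16 to 8.98 on the sorted arrays. Their part in the Col28a1 result was not tested.

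Col7a1, which forms the anchoring fibrils below the epidermal basement membrane, was higher in SKPs. It was at 9.86, 9.27, 9.90 and 9.77 on the SKP arrays, at 8.54, 8.54 and 8.58 on sorted replicates 16, 17 and 18, and at 8.95 and 9.19 on replicates 2 and 20. SKP replicate 4 came within a small distance of sorted replicate 20, and no arrays overlapped. Col7a1 was 1.92-fold higher (difference 0.94 ± 0.18, SE; adjusted p = 0.00197; 1.15 without replicates 2 and 20), on arrays where the keratinocyte markers were lower. The 7 myeloid markers, all higher in SKPs, ranged in mean level from 7.31 to 8.94 over the SKP arrays and from 5.91 to 6.30 over the sorted arrays, with 4 at low level in sorted cells. All 7 were lowest on SKP replicate 4 and highest on replicate 5 among the SKP arrays. Of the called collagens, Col7a1 and Col24a1 were so too. Col3a1, Col5a2, Col4a1, Col4a2, Col14a1 and Col15a1 were highest on replicate 4 and lowest on replicate 5, and the others showed neither order. These orders were read after the values were seen. The part of the myeloid markers in the collagen results was not tested.

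Col26a1, a short collagen of reproductive tissues, was at 7.52 to 8.88 on the SKP arrays and 8.51 to 9.46 on the sorted arrays. Its difference of -0.77 was not called (adjusted p = 0.0551). It passed without SKP replicate 4 (adjusted p = 0.0255), sorted replicate 2 (0.0296), sorted replicate 20 (0.0480) or both sorted arrays (difference -1.04, adjusted p = 0.0122). Col8a1 and Col8a2, the network-forming chains of vessel and corneal matrix, differed by 0.09 and -0.25 (adjusted p = 0.816 and 0.179). Col10a1, the hypertrophic cartilage collagen, was a low-level gene.

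**Figure D3:**
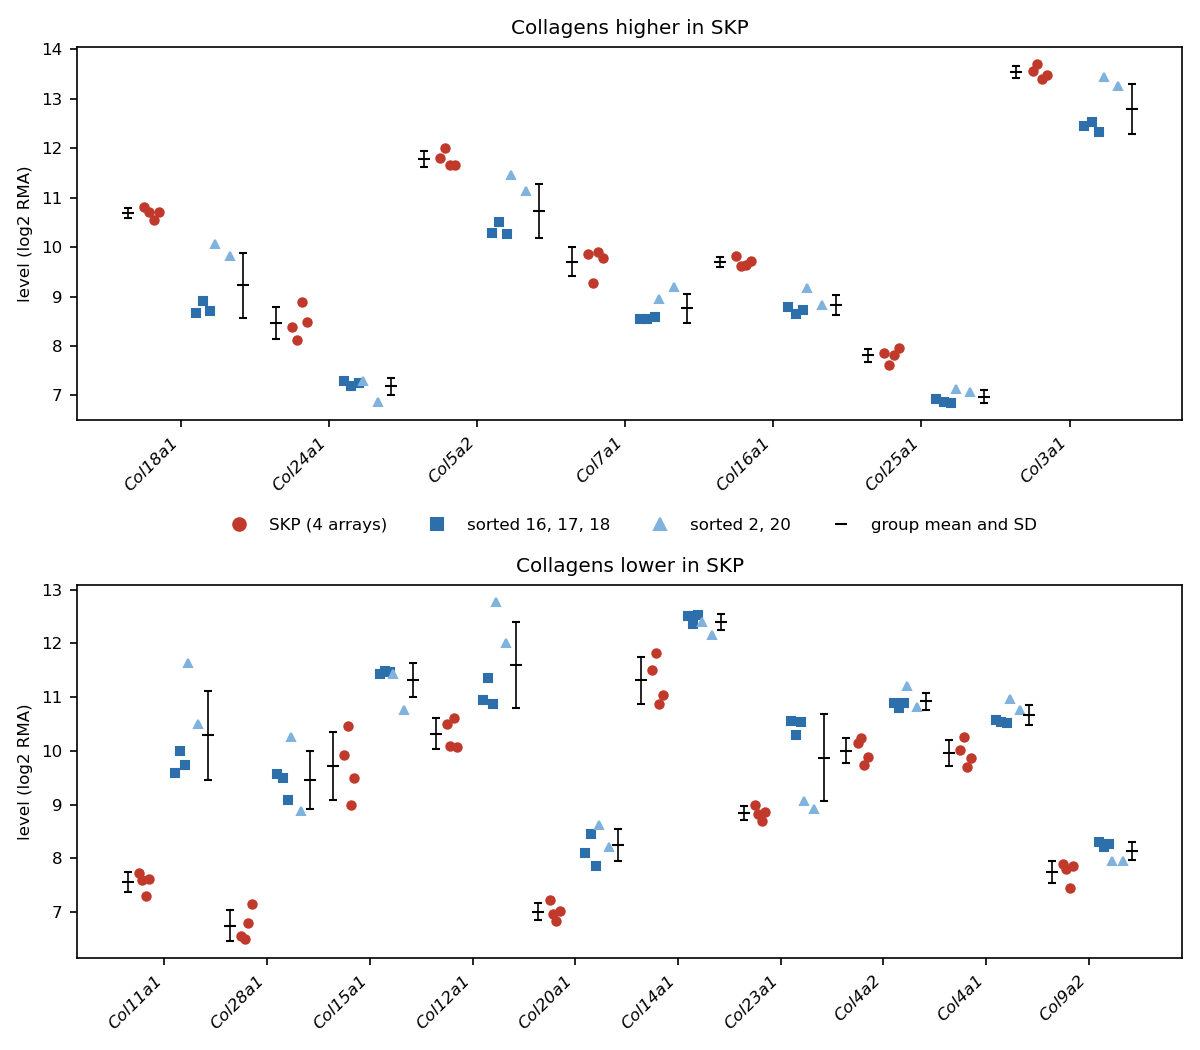
Level on each array (log2 RMA, y axis) of the 7 collagens called higher (upper panel) and the 10 called lower (lower panel) in SKPs, ordered by difference; symbols as for the plot of fibrillar and type VI chains, with bars for the mean and SD of each group. Groups are separate for 15 of the 17 genes, and sorted arrays reach into the SKP range for Col3a1 and Col23a1. These genes were picked by their difference on the same arrays. Over all 44 collagens the groups were separate for 17, against 34.0% of all genes.

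Measured levels of chains that assemble together did not always differ by the same amount. For 12 pairs, most of them partners in a trimer, the difference of both log2 values was taken within each array and compared between groups by an exact two-sided permutation test, adjusted over the 12 pairs. This within-array difference cancels a shift shared by all genes of an array, but not scaling that depends on level. It also does not say which chain changed. Each chain is read by its own probe set, and whether both probe sets respond alike to a change in RNA was not tested. The within-array difference passed for 9 pairs, of which 8 had the smallest p that 4 against 5 arrays allow (0.0159, adjusted p = 0.0238). With quantile normalization 9 pairs passed as well. Pairs of other genes were not tested, so the count cannot be read as particular to collagen partners. SKP and sorted arrays did not overlap for 34.0% of all single genes. Some chains, such as Col11a1 and Col6a1, are in several of the pairs that passed. Without SKP replicate 4, 5 or 6 none of the pairs passed (lowest adjusted p = 0.0536; 8 pairs at an unadjusted exact p under 0.05). Without sorted replicates 2 and 20 the smallest possible p is 0.0571, so no pair could pass, and all 9 kept their direction.

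Col1a1 minus Col1a2, the type I pair, was -0.35, -0.34, -0.38 and -0.36 on the SKP arrays and between -0.12 and 0.13 on the sorted arrays. The SKP values were nearly equal, and the pair differed by -0.37 between groups (exact permutation test, adjusted p = 0.0238). Col5a1 minus Col5a2 was -1.80 to -1.60 on the SKP arrays and -1.18 to -0.86 on the sorted arrays, a difference of -0.63 (exact test, adjusted p = 0.0238). In both pairs replicates 2 and 20 lay with the other sorted arrays, although the chains themselves set those arrays apart.

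Col6a1 minus Col6a2 differed by only 0.17 between groups (exact test, adjusted p = 0.0238). Col6a1 minus Col6a3 differed by more: it was -0.68 to -0.37 on the SKP arrays, -2.44 to -1.92 on sorted replicates 16, 17 and 18, and -0.93 and -0.83 on replicates 2 and 20. The difference was 1.16 (exact test, adjusted p = 0.0238), and 1.69 without replicates 2 and 20. The largest pair differences were for Col11a1, by -3.15 against Col5a1 and -2.75 against Col11a2, its partner chains in types V and XI (exact test, adjusted p = 0.0238 each). Col11a1 minus Col5a1 was -2.71 to -2.44 on the SKP arrays and 0.21 to 1.26 on the sorted arrays.

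Col4a1 minus Col4a2 differed by 0.20 (exact test, p = 0.0317, adjusted p = 0.0423), Col9a1 minus Col9a2 by 0.34, and Col3a1 minus Col5a2, neighbours on chromosome 1, by -0.32 (adjusted p = 0.0238 for both by the exact test). The pairs Col4a3 and Col4a4 (0.00, p = 1.0), Col4a5 and Col4a6 (0.10, p = 0.333) and Col8a1 and Col8a2 (0.34, p = 0.413) did not pass the exact test.

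**Figure D4:**
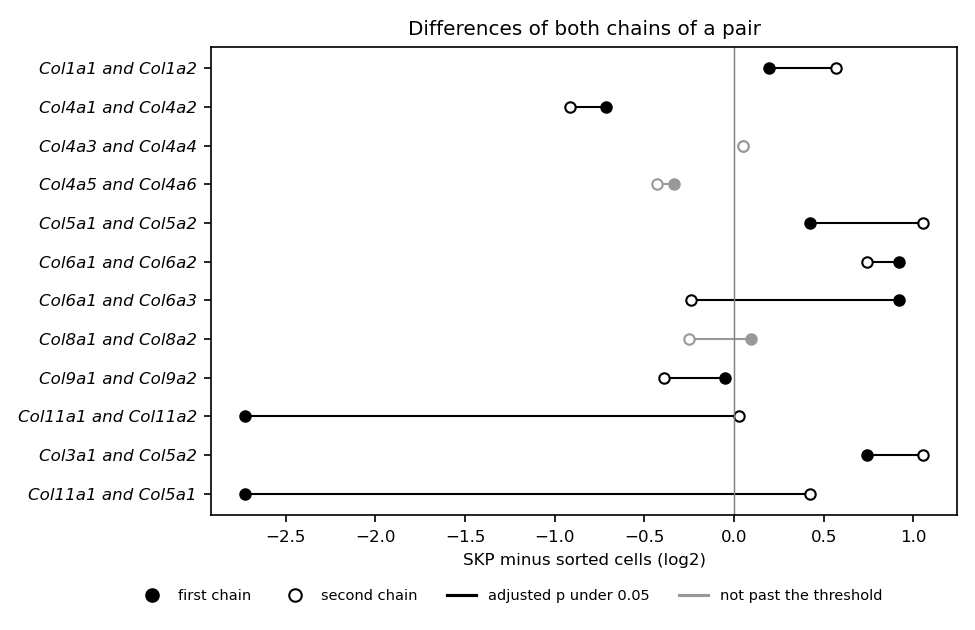
Difference between SKP and sorted arrays (log2, x axis) of both chains of each of the 12 pairs: filled circles are the first chain named, open circles the second, and a black line marks the 9 pairs whose within-array difference passed the exact permutation test at an adjusted p under 0.05. Col11a1 lies far to the left of both its partners, and Col6a1 and Col6a3 lie on opposite sides of 0.

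Genes that fold and modify collagen chains were mostly higher in SKPs. Of 20 measured, 13 were higher (20.2% of all genes) and 1 lower (16.9% of all genes), with a median difference of 0.49 beside 0.07 over all genes. Without sorted replicates 2 and 20, 14 were higher, 2 lower, and the median was 0.71. The list's mean level was 9.70 to 9.82 on the SKP arrays, 8.86 to 8.91 on sorted replicates 16, 17 and 18, and 9.41 and 9.34 on replicates 2 and 20. The dermal fibroblast markers, whose mean levels are given above, were likewise between the other sorted arrays and the SKP arrays on replicates 2 and 20, and their part in this result was not tested. P4ha2 and P4ha1, alpha subunits of the prolyl 4-hydroxylase whose hydroxyproline stabilises the helix, had the largest differences. P4ha2 was at 9.90, 9.29, 10.09 and 9.84 on the SKP arrays, at 7.07, 7.18 and 7.05 on sorted replicates 16, 17 and 18, and at 8.34 and 8.37 on replicates 2 and 20. It was 4.52-fold higher in SKPs (adjusted p = 0.000491) and 6.40-fold higher without those 2 arrays, which stood between the other sorted arrays and the SKPs. P4ha1 was 3.38-fold higher (adjusted p = 0.00107; 4.75-fold without replicates 2 and 20), with 11.22 to 11.46 on the SKP arrays and 8.98 to 10.34 on the sorted arrays. P4ha3, another alpha subunit, differed by -0.09 (adjusted p = 0.671). P4hb, the beta subunit, named after its values were seen, was 1.44-fold higher (adjusted p = 0.00394).

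The lysyl hydroxylases were divided. Plod2, the lysyl hydroxylase of the telopeptides that form cross-links, was the only gene of the list called lower, at 9.76 to 10.34 on the SKP arrays and 10.40 to 10.61 on the sorted arrays (difference -0.41, adjusted p = 0.0164; -0.44 without replicates 2 and 20). Named after their values were seen, Plod1 was 2.60-fold and Plod3 2.35-fold higher (adjusted p = 0.00211 and 0.000100). Also named afterwards, Serpinh1, the collagen chaperone Hsp47, was 1.75-fold higher (adjusted p = 0.00112), and Fkbp14, a prolyl isomerase, 3.22-fold higher (adjusted p = 8.08e-05). Without replicates 2 and 20, Plod1 was 3.47-fold, Plod3 2.73-fold, Serpinh1 1.99-fold and Fkbp14 3.91-fold higher. Creb3l1, a transcription factor, was called higher with an adjusted p of 0.0427. Its call was lost without any one SKP array or without sorted replicate 16, 17 or 18 (adjusted p up to 0.0966), and its adjusted p was 4.07e-06 without both replicates 2 and 20. Mia3, a cargo receptor for procollagen, was called higher with an adjusted p of 0.0396. Its call was lost without SKP replicate 3, 4 or 5, without sorted replicate 2, 17 or 20 (adjusted p up to 0.112), without both replicates 2 and 20 (0.0946), with array weights (0.0829) and with quantile normalization (0.133).

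Genes of procollagen processing and cross-linking were mixed, with 5 of 11 higher, 3 lower and a median of 0.15. Over all genes, 20.2% were higher and 16.9% lower, and 25.4% and 21.1% without sorted replicates 2 and 20. Leaving out replicates 2 and 20 gave 6 higher, 3 lower and a median of 0.69. Tll2, a tolloid-like protease, was at 8.35, 8.63, 8.17 and 8.28 on the SKP arrays and at 5.69 to 5.86 on the sorted arrays, which is a low level. It was 5.90-fold higher in SKPs (adjusted p = 7.92e-08; 5.83-fold without replicates 2 and 20), a fold that may be too small where the sorted values are not above background. Bmp1, the main C-proteinase of fibrillar procollagens, was 1.51-fold higher (adjusted p = 0.000581; named after its values were seen). The lysyl oxidases went both ways. Loxl3 was 3.46-fold higher (adjusted p = 1.13e-05; 3.02-fold without replicates 2 and 20). It was at 9.97 to 10.25 on the SKP arrays and no higher than 8.73 on the sorted arrays. Named after their values were seen, Loxl1 was 2.15-fold higher (adjusted p = 5.09e-05) and Loxl4 1.75-fold lower (adjusted p = 1.81e-05). Without replicates 2 and 20 these folds were 2.38 and 1.81. Pcolce2, an enhancer of the C-proteinase, was 2.88-fold lower (adjusted p = 0.000920), with 5.94 to 6.27 on the SKP arrays, a low level, and 6.92 to 8.35 on the sorted arrays. Its fold, 3.71 without replicates 2 and 20, may likewise be too small. Adamts3, an N-proteinase, was 1.88-fold lower (adjusted p = 0.000630; 1.64-fold without replicates 2 and 20). Adamts14, named after its values were seen, was called higher (adjusted p = 0.0214). Its call was lost without SKP replicate 5 or 6 or sorted replicate 16 (adjusted p up to 0.066).

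Lox, the founding lysyl oxidase, was named after its values were seen because replicates 2 and 20 decide it. It was at 9.49, 9.26, 9.78 and 9.39 on the SKP arrays, at 8.41, 8.88 and 8.46 on sorted replicates 16, 17 and 18, and at 10.62 and 10.40 on replicates 2 and 20. The SKP arrays thus lay between both sets of sorted arrays (difference 0.12, adjusted p = 0.865), and without those 2 arrays Lox was 1.86-fold higher in SKPs (adjusted p = 0.00119).

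Of 9 receptor and uptake genes, 2 were higher, 1 was lower and the median difference was 0.11. Leaving out replicates 2 and 20 gave 3 higher, 1 lower and a median of 0.21. The shares of all genes were 20.2% higher and 16.9% lower, and 25.4% and 21.1% without those 2 arrays. Ddr1 and Ddr2 are collagen-binding receptor tyrosine kinases, the former typical of epithelia and the latter of mesenchyme. Ddr2 was at 11.54 to 11.93 on the SKP arrays and 10.56 to 11.30 on the sorted arrays, 1.64-fold higher (adjusted p = 0.00479; 1.42-fold without replicates 2 and 20). Ddr1 was at 7.56 to 7.86 and 8.07 to 8.68, 1.71-fold lower in SKPs (adjusted p = 0.000910; 1.81-fold without them). Mrc2, an endocytic collagen receptor, was 1.89-fold higher (adjusted p = 0.00630; 1.52-fold without them). None of the 4 integrin alpha genes was called by limma or passed an unadjusted p under 0.05, which 9030 of all 19938 genes passed. Their differences ran from -0.25 for Itga2 to 0.11 for Itga11.

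**Figure D5:**
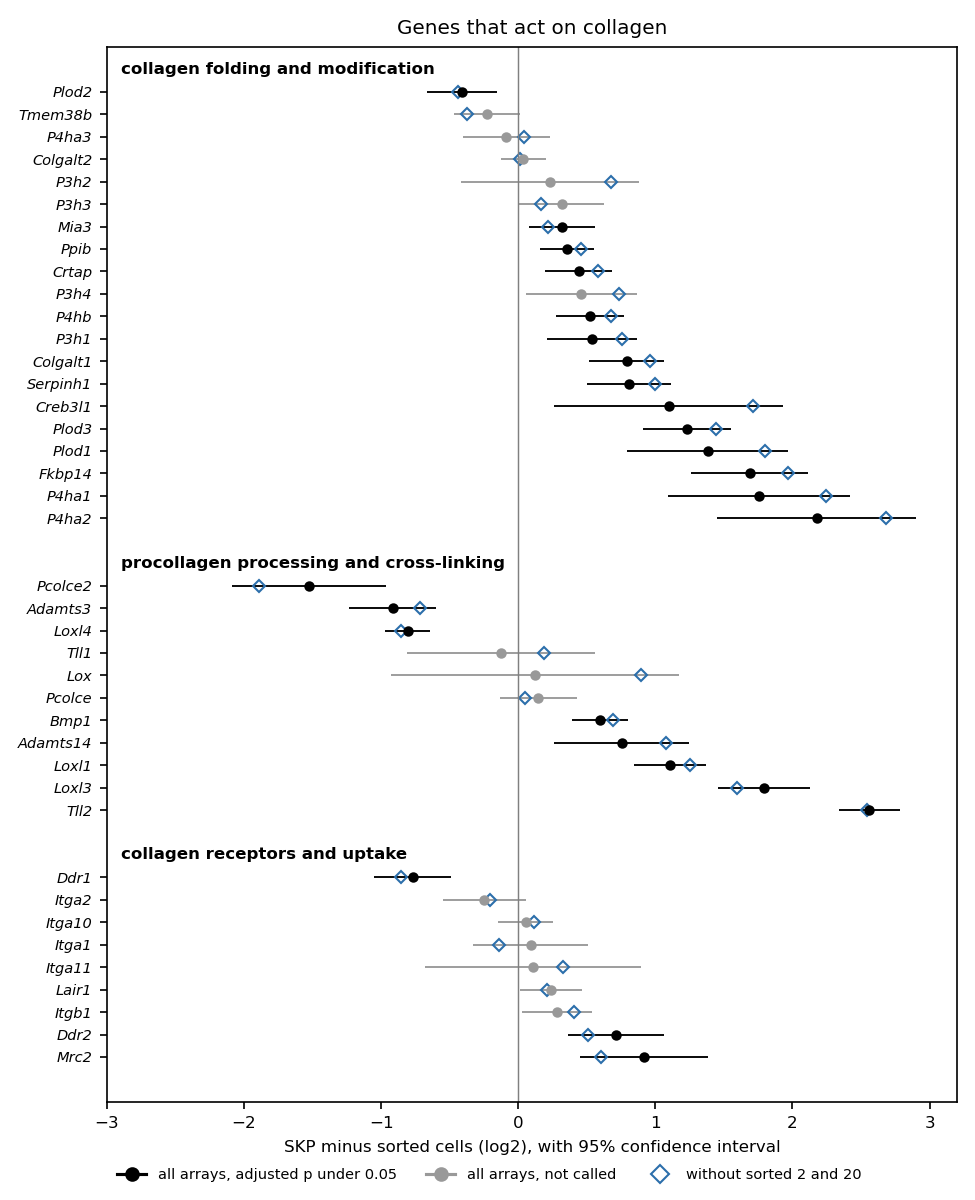
Difference between SKP and sorted arrays (log2, x axis) of the genes that fold, process and bind collagen; points are limma estimates with all arrays and 95% confidence intervals, and open diamonds the estimates without sorted replicates 2 and 20. Of the folding genes, 13 of 20 are black points to the right of 0, and Plod2 is the only black point to its left.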

How the data were processed

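RNA was measured on 9 arrays, 1 for each of 4 SKP and 5 sorted preparations that the design text calls independent. The authors deposited log2 RMA values per probe set. Per the submitters' processing notes they used RMA, Affymetrix Expression Console and limma, with versions and settings not given in the sources used here. RMA sets the probe values of all arrays to a common distribution and pulls low values towards each other. Array medians of the deposited gene levels still ran from 7.15 to 7.30. No detection p-values were used, and the number of arrays limits the precision.

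Of 35556 probe sets, 21789 have 1 gene symbol in the platform annotation, 1621 have several and the others none. Each gene was represented by its brightest probe set over the 9 arrays. limma 3.58.1 in R 4.3.3 (lmFit and eBayes, two-sided) tested SKP minus sorted cells over all 19938 genes, without covariates, and the fit was tested on simulated data. Chain pairs were tested with scipy 1.17.1. Gene lists are hand-written, and 44 of 45 listed collagens were measured, 20 of 21 folding, 11 of 13 processing and 9 of 10 receptor genes. Promoters are RefSeq windows, matched by symbol. Members and lists were chosen with earlier results of these data known. Called collagens with a 2-fold difference or no overlap are given array by array, and of the other lists the 2 called genes farthest up and down. Most other genes are marked as named after their values were seen. P4ha3, Creb3l1, Mia3, Itga2, Itga11 and single marker genes such as Acan and Kdr are also named outside this rule, without that mark.

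Alternatives were quantile normalization, median centring, leaving out the low-level genes (the lowest 33.3%), means over probe sets, array weights, trend and robust fitting, an adjusted p under 0.01, and leaving out each array. Leaving out sorted replicates 2 and 20 together was added after the data were seen.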

Additional observations from a re-analysis of the deposited data

Results flagged for a closer look

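In 9 of 88 groups of collagen values, 1 array lay far from the others of its group by Dixon's gap test, where chance flags about 1 in 20 groups. On sorted replicate 20, Col24a1 was at 6.87 (others 7.19 to 7.30), Col4a6 at 7.32 (others 6.54 to 6.64) and Col15a1 at 10.76 (others 11.44 to 11.48). On sorted replicate 2, Col4a2 was at 11.21 (others 10.80 to 10.89) and Col10a1 at 5.64 (others 6.03 to 6.15). Col4a4 was at 6.51 on sorted replicate 16 (others 6.55 to 6.57) and Col9a1 at 7.06 on sorted replicate 18 (others 6.82 to 6.87). On SKP replicate 5, Col13a1 was at 7.02 (others 7.64 to 7.69) and Col6a6 at 7.63 (others 7.94 to 7.97).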

How the results depend on the processing

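No collagen or pathway gene that was called changed direction under any setting. The count of collagens called higher was 7, and 11 with median centring, 15 with array weights (0.187 to 2.65) and 14 without both sorted replicates 2 and 20. Over all 19938 genes it was 4020, and 5296 with median centring and 5060 without both arrays. Counts over all genes with array weights or with single arrays left out are not given here. Of the collagens not called in the main fit, array weights also called Col1a1, Col1a2, Col5a1, Col5a3, Col6a2, Col6a3 and Col26a1. Median centring also called Col1a2, and leaving out the low-level genes also called Col26a1. Leaving out each array in turn gave 6 to 12 higher, with 12 without sorted replicate 2, and 8 to 13 lower. Of the folding genes, 1 was lower, and 2 with array weights, 0 at an adjusted p under 0.01 and 2 without both sorted arrays, with 1 to 2 in the leave-outs. Receptor genes called higher numbered 2, and 4 with centring and 4 with array weights. The FACIT median moved from -0.39 to -0.15 without both sorted arrays. Chain pairs past the threshold numbered 9, 0 to 9 in the leave-outs and 0 without both sorted arrays, where fewer arrays raise the smallest possible p. The cause of the other changes was not tested. No paired analysis was possible because the groups share no replicate numbers. Levels of 6.31 and under may not be above background, which limits Col6a4, Col10a1 and the SKP values of Col4a6 and Col19a1.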
